A study of Mus musculus with 2 samples.

Results

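The fibrillar and type VI collagens studied here were 10 genes out of the 27998 listed in the count tables, chosen by symbol: Col1a1, Col1a2, Col3a1, Col5a1, Col5a2, Col5a3, Col6a1, Col6a2, Col6a3 and Col14a1. All 10 were found. They were measured by single-cell RNA sequencing of the stromal vascular fraction of epididymal white adipose tissue (eWAT), the cells left once adipocytes are removed from the dissociated fat pad. The animals were male C57BL/6J mice. From the age of 6 wk they were kept for 24 wk on a diet low (LFD) or high (HFD) in fat, and each diet gave 1 library. The number of mice behind a library is not given in the sources used here, so there are no replicates and the diets are compared without a test.

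Collagens are trimers of chains wound into a triple helix. Types I and III form the thick fibrils that bear tension, type V is built into the same fibrils and governs how they start and how wide they grow, and type XIV sits on the fibril surface. Type VI forms a separate network of beaded filaments close to cell membranes and is abundant around adipocytes, where the end of its Col6a3 chain can be cut off to release the peptide endotrophin. In adipose tissue these proteins come mainly from stromal fibroblasts, which include a Pi16+ Dpp4+ progenitor population, and they build up in obese, fibrotic fat.

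The libraries held 1113 barcodes (LFD) and 1144 barcodes (HFD), with 7356278 and 8412325 unique molecular identifiers (UMIs, each a captured transcript counted once), and shared 0 barcodes. Of these, 1057 and 1117 barcodes had at least 200 genes and were sorted by marker UMIs. Fibroblasts had at least 10 UMIs of Dcn, the small proteoglycan decorin, and were split at 3 UMIs of Pi16, Dpp4 and Sema3c together. This gave 204 Pi16-low fibroblasts on LFD and 207 on HFD, with median depths of 7887.5 and 7546 UMIs, and 173 and 84 Pi16-high fibroblasts, with 9420 and 9555.5 UMIs. Endothelial barcodes (at least 3 UMIs of Cdh5 and Cldn5) numbered 98 and 115, mural barcodes (at least 5 UMIs of Rgs5, Kcnj8, Abcc9 and Notch3) 5 and 6, and macrophages (at least 10 UMIs of C1qa, C1qb and C1qc) 230 and 321. A further 51 and 92 barcodes met the endothelial and the mural rule together and are described as a group of their own. Their median depths were 13270 and 9029 UMIs, against 4317.5 and 3156 UMIs in endothelial barcodes. Whether the barcodes of this group hold single cells is not known. Doublets were kept.

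The classes were described by lists of markers, some of which hold genes of the class rules. All 8 fibroblast markers, Dcn among them, were seen in at least 25% of barcodes of both fibroblast classes. All 6 progenitor markers were seen that often in the Pi16-high class, and 3 of 6 in the Pi16-low class. Pi16, Dpp4 and Sema3c are among these 6, so this result follows in part from the rule. The Pi16-high class also held mesothelial transcripts: 5 markers of mesothelium summed to 1256 CPM (UMIs per 1000000 UMIs of the class) on LFD and 1105 CPM on HFD, against 71.1 and 16.9 CPM in the Pi16-low class. At least 5 such UMIs were present in 25 of 173 and 12 of 84 Pi16-high barcodes, and results for the class are given below with and without them. Intervals are exact 95% limits (Poisson for a level, Clopper-Pearson for a share, conditional binomial for a ratio). They hold the error of counting alone, not the spread from mouse to mouse. Intervals that overlap do not show that the values are equal. Because the library preparation counts 3′ ends, the level of a chain is not scaled to its length.

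On the GRCm38 build, Col3a1 (chr1:45311538-45349706) and Col5a2 (chr1:45374321-45503282) lie 24614 bases apart with no annotated gene between them and point towards each other. Col6a2 (chr10:76595762-76623630) and Col6a1 (chr10:76708792-76726168) share a strand and lie 85161 bases apart, with 1 noncoding gene between them. The remaining chains stand alone, Col1a1 at chr11:94936224-94953042, Col1a2 at chr6:4504814-4541544, Col5a1 at chr2:27886425-28039514, Col5a3 at chr9:20770050-20815067, Col6a3 at chr1:90765923-90843971 and Col14a1 at chr15:55307750-55520803. No annotated gene overlapped the last 5 kb of any chain, where 3′ reads fall.

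RefSeq windows of the 250 bases before a gene start (GRCm38.p6) were matched for 7 of the 10 chains, and 3 are printed for the chains that the diet comparison turns on. Over all barcodes of a class, Col3a1 had the highest diet ratio in both fibroblast classes and Col5a1 the lowest in the Pi16-low class, orders that other settings changed as given below, and the ratio of Col5a3 differed between the classes. Sequences run 5′ to 3′ on the coding strand, and capitals mark matches on either strand to TATAAA (the TATA box), to CCAAT (the CCAAT box) or to GGGCGG (the GC box).
Col3a1, chr1:45311288-45311537, plus strand: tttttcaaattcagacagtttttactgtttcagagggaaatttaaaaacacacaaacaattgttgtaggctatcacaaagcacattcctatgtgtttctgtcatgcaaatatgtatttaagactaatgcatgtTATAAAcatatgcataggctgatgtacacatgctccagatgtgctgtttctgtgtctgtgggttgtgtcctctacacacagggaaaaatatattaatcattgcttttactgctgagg
Col5a1, chr2:27886175-27886424, plus strand: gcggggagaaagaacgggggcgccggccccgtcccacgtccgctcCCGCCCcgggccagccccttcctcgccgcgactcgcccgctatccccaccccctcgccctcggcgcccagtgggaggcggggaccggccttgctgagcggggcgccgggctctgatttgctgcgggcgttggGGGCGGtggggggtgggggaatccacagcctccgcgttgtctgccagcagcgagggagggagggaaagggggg
Col5a3, chr9:20815068-20815317, minus strand: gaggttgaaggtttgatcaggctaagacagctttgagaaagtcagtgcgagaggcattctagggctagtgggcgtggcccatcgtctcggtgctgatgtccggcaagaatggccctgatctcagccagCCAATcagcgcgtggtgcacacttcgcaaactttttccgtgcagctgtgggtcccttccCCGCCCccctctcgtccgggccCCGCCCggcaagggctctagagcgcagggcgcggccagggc

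The Col3a1 window was 35.2% G and C and held 1 TATAAA, 117 bases before the start. The Col5a1 window was 76.4% G and C and held 2 GGGCGG matches, and the Col5a3 window was 62.8% G and C with 1 CCAAT and 2 GGGCGG matches. The first and second of these were the lowest and the highest of the matched chains in G and C, and the chains not printed lay between 56 and 64.4%. Over all 32536 windows of this length the median was 52.4% G and C, and 12.3% held TATAAA, 33.8% CCAAT and 33.0% GGGCGG. A match is a run of letters and not a mapped binding site.

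Collagen UMIs lay mostly in fibroblasts in both libraries. Of the UMIs of the 10 chains in barcodes with at least 200 genes, 92.0% on LFD (91.7 to 92.3%) and 84.3% on HFD (84.0 to 84.6%) lay in fibroblasts. A further 3.88 and 10.2% lay in 11 and 20 barcodes that met the fibroblast rule and another rule, and 3.31 and 3.84% in the barcodes with both vascular rules. Endothelial, mural and macrophage barcodes each held at most 0.223%. Macrophages, a class in which little collagen transcript should be found, served as the background. The 10 chains summed to 8.07 CPM there on LFD (12 UMIs) and 19.5 CPM on HFD (57 UMIs), at median depths of 6328 and 6915 UMIs.

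In Pi16-low fibroblasts on LFD, Col3a1, the chain of type III, stood highest at 3776 CPM (3678 to 3876), followed by the type I chains Col1a2 at 2432 CPM (2354 to 2513) and Col1a1 at 1074 CPM (1022 to 1128). Col6a1 came next with 839 CPM (793 to 887). Col6a2 had 532 CPM (496 to 571), Col6a3 493 CPM (458 to 530), Col5a2 454 CPM (420 to 489) and Col5a3 411 CPM (379 to 445). Among these 4 chains the intervals of neighbours overlapped, so the order of neighbours is not settled. Col5a1 followed at 346 CPM (316 to 377), just below the interval of Col5a3, and Col14a1 was lowest at 109 CPM (93.2 to 128).

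Pi16-high fibroblasts on LFD had less of every chain but Col14a1. Their levels were 2514 CPM for Col3a1, 1932 CPM for Col1a2, 841 CPM for Col1a1, 528 CPM for Col6a1, 325 CPM for Col6a2, 255 CPM for Col6a3, 333 CPM for Col5a2, 225 CPM for Col5a1 and 166 CPM for Col5a3. Col14a1, a fibril-associated chain, reached 570 CPM (534 to 607) and was the fourth highest, with an interval that overlapped that of Col6a1 (493 to 564).

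**Figure D1:**
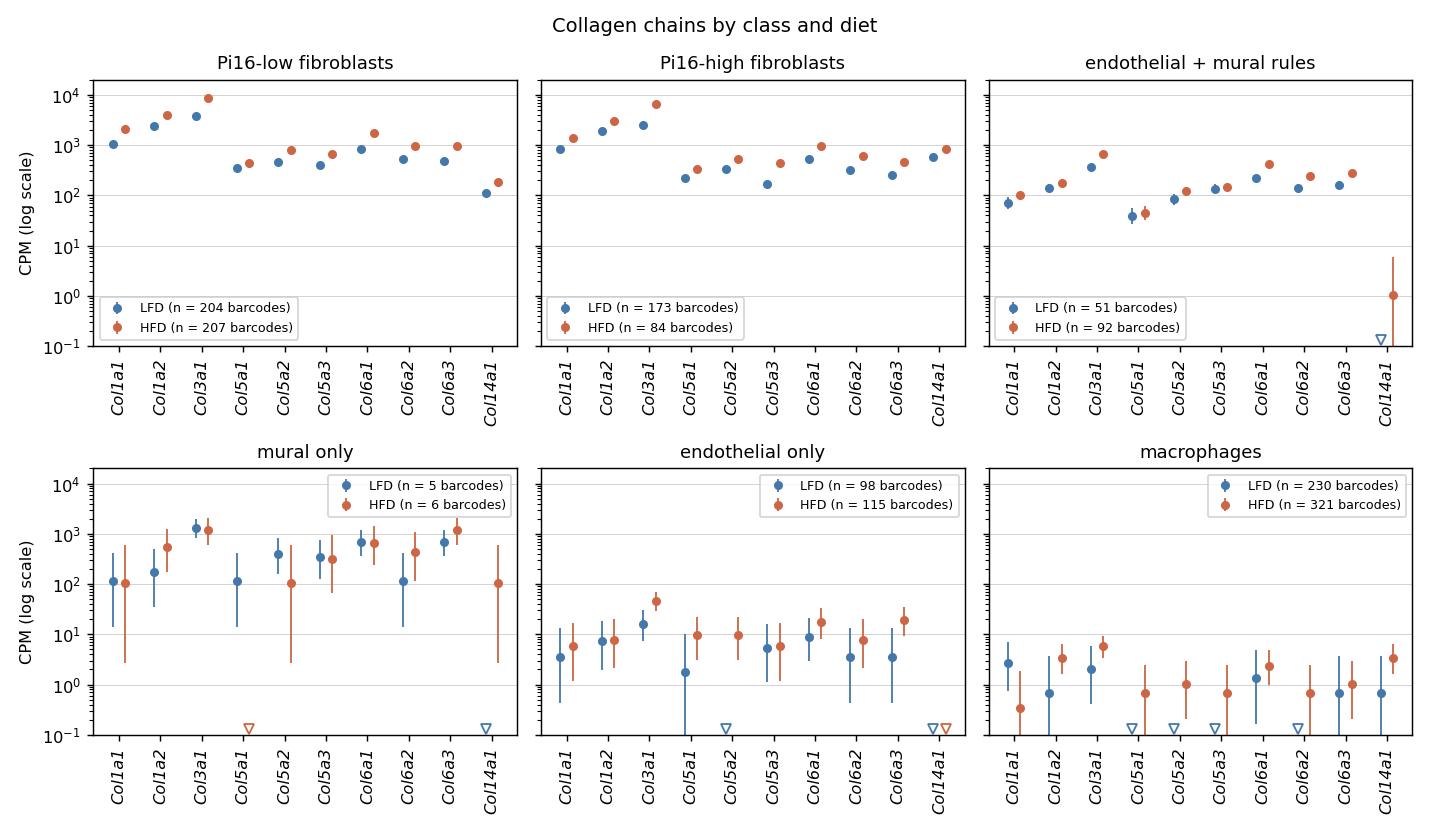
Level of each chain in CPM (log scale) in 6 groups of barcodes, LFD in blue and HFD in orange, with exact Poisson 95% intervals that cover counting error only. Open triangles at the lower edge stand for 0 UMIs. In both fibroblast panels every HFD point lies above its LFD point, and Col14a1 is near or at 0 in the group with both vascular rules.

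The first comparison asked whether the chains differed between diets within a fibroblast class. In Pi16-low fibroblasts the 10 chains together went from 10466 CPM on LFD (10302 to 10631) to 20615 CPM on HFD (20393 to 20839), a ratio of 1.97 (1.93 to 2.01). All 10 ratios were above 1 and 9 of 10 were at least 1.5, where 6.22% of the 6415 genes with at least 50 UMIs in this class were at least 1.5-fold higher. No chain was lower by that factor, where 8.4% of genes were. At 2-fold the counts were 2 of 10 chains and 1.5% of genes. The median log2 ratio was 0.84 for the chains and -0.01 for all genes tested. Markers of other cells moved with diet in this class: the 9 mural markers summed to 29.5 CPM on LFD and 158 CPM on HFD, with 1 and 8 barcodes at 5 or more such UMIs, and the 8 macrophage markers to 121 and 40.6 CPM. None of these markers was seen in 25% of the barcodes. Without the barcodes at 5 or more mural UMIs the summed ratio was 1.92 (1.89 to 1.96), and the part of the macrophage markers was not tested.

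Among the fibril-forming chains of this class, Col3a1 went from 3776 to 8816 CPM, a ratio of 2.34 (2.26 to 2.41), the highest of the class. Col6a1 passed it with barcodes thinned to 1000 UMIs (2.44 against 2.11 for Col3a1), and within the limits of the study on barcodes (200 to 2500 genes and under 5% mitochondrial UMIs) Col6a1 and Col5a3 were both at 1.85 and Col3a1 at 1.82. Col1a1 had 1074 CPM on LFD and 2096 CPM on HFD (1.95, 1.84 to 2.07), while Col1a2 stood at 2432 and 3955 CPM (1.63, 1.56 to 1.69). Over all barcodes of the class the chains of type I thus did not move by the same factor, a difference that some settings given below did not keep beyond counting error. In type V, Col5a2 went from 454 to 795 CPM (1.75, 1.60 to 1.93) and Col5a3 from 411 to 664 CPM (1.61, 1.46 to 1.79). Col5a1, the chain found in most type V trimers, had the lowest ratio, from 346 to 449 CPM (1.30, 1.16 to 1.46), and was the only chain below 1.5-fold over all barcodes of the class. Within the limits of the study it was at 1.48, above Col1a1 (1.38), Col1a2 (1.31) and Col14a1.

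All 3 type VI chains were close to 2-fold higher on HFD in Pi16-low fibroblasts. Col6a1 went from 839 to 1738 CPM (2.07, 1.94 to 2.22), Col6a2 from 532 to 970 CPM (1.82, 1.67 to 1.99) and Col6a3 from 493 to 947 CPM (1.92, 1.76 to 2.10). The 3 intervals overlapped. Col14a1 went from 109 to 184 CPM (1.69, 1.39 to 2.05) on 163 and 295 UMIs, the fewest of any member, and turned to 0.735 (0.478 to 1.14) within the limits of the study.

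In Pi16-high fibroblasts the 10 chains together went from 7688 CPM (7556 to 7823) to 15294 CPM (15028 to 15563), a ratio of 1.99 (1.94 to 2.04). The 9 mural markers stood at 124 and 204 CPM in this class, with 12 of 173 and 10 of 84 barcodes at 5 or more such UMIs, and without those barcodes the ratio was 2.09 (2.03 to 2.14). Ratios of at least 1.5 were found for 8 of 10 chains, against 5.8% of 5985 genes, and 0 chains were at least 1.5-fold lower, against 7.7%. A ratio of at least 2 was found for 2 of 10 chains, against 1.02%. Col3a1 went from 2514 to 6727 CPM (2.68, 2.57 to 2.79). Col5a3 went from 166 to 437 CPM (2.63, 2.24 to 3.08), close to Col3a1 but with a wider interval. Col5a3 was above Col3a1 among barcodes of 5000 to 10000 UMIs (2.08 against 2.02) and within the limits of the study (6.04 against 3.61), which kept 22 and 16 barcodes. The type I chains had the ratios 1.65 (Col1a1, 1.52 to 1.78) and 1.54 (Col1a2, 1.46 to 1.62), and the type VI chains 1.86, 1.85 and 1.84 in the order Col6a1, Col6a2 and Col6a3. Col5a2 had a ratio of 1.59 (1.40 to 1.81), and Col5a1 and Col14a1 were both just below 1.5-fold at 1.49 (1.27 to 1.75 and 1.35 to 1.65).

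Several of these Pi16-high calls depended on which barcodes were used. Among barcodes of 5000 to 10000 UMIs, Col1a1 (1.17), Col1a2 (1.20) and Col5a2 (1.18) were below 1.5-fold and Col14a1 (1.88) above it. Within the limits of the study, Col1a1 was at 1.26 and Col1a2 at 1.42, while Col5a1 reached 2.34, Col6a1 3.05 and Col6a3 3.51. Thinning to 1000 UMIs put Col5a2 at 1.25 and Col6a3 at 1.21, with Col5a1 at 1.95. Col3a1, Col5a3, Col6a1 and Col6a2 were at least 1.5-fold higher in each of these 3 settings.

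For 3 chains the diet ratio differed between the fibroblast classes by more than counting error, as it did for 4.25% of 5649 genes. The intervals of Col3a1 (2.26 to 2.41 and 2.57 to 2.79) and of Col5a3 (1.46 to 1.79 and 2.24 to 3.08) did not overlap between the classes, with the higher ratio in Pi16-high fibroblasts. For Col3a1 this order turned among barcodes of 5000 to 10000 UMIs, where the ratio was 2.24 (2.15 to 2.33) in Pi16-low and 2.02 (1.89 to 2.16) in Pi16-high fibroblasts. Col1a1 was the reverse case, with a higher ratio in the Pi16-low class (1.84 to 2.07 against 1.52 to 1.78). Among barcodes of 5000 to 10000 UMIs the Col5a3 ratio was again higher in Pi16-high fibroblasts (2.08 against 1.61), but with intervals that overlapped (1.64 to 2.64 and 1.42 to 1.82). The difference between classes could not be tested across animals, as each class and diet has 1 library.

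**Figure D2:**
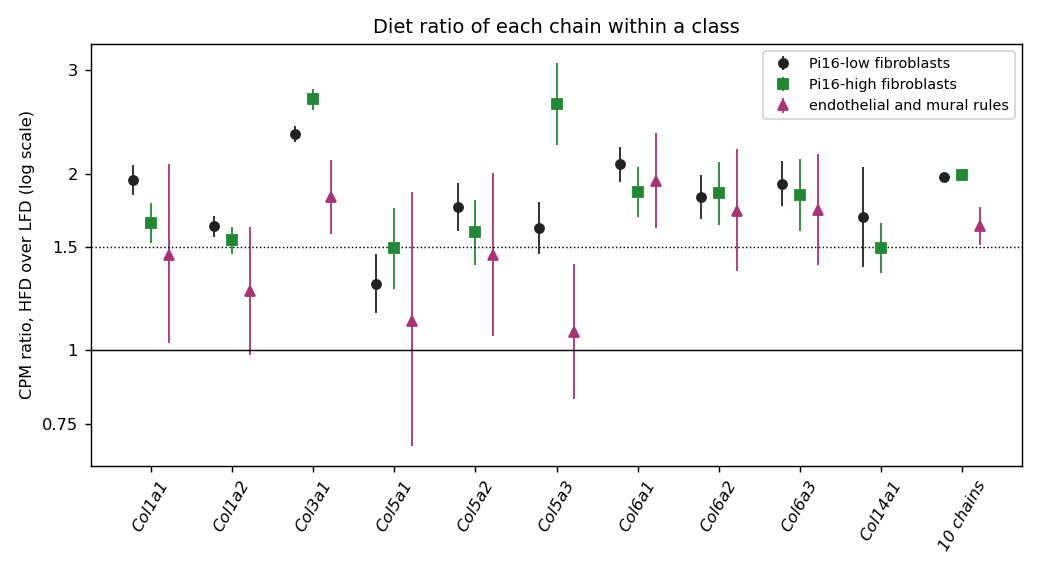
CPM ratio of HFD over LFD (log scale) for each chain and for the 10 chains summed, in Pi16-low fibroblasts (circles), Pi16-high fibroblasts (squares) and barcodes with both vascular rules (triangles), with exact conditional 95% intervals of counting error. The solid line marks no difference and the dotted line 1.5-fold. Over all barcodes of a class Col3a1 is highest in both fibroblast classes, an order that changed in other settings, and Col5a3 spans 1.46 to 1.79 in the Pi16-low and 2.24 to 3.08 in the Pi16-high class.

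The mesothelial transcripts bore on the Pi16-high values. Barcodes with at least 5 mesothelial UMIs had 5205 CPM of the 10 chains on LFD and 6477 CPM on HFD (1.24, 1.15 to 1.35), with Col3a1 at 2650 and 3394 CPM but Col14a1 at 26.7 and 52.9 CPM and Col5a3 at 6 UMIs in 25 barcodes and 0 UMIs in 12. Without them the class had 8316 and 17277 CPM (2.08, 2.02 to 2.13), and the Col3a1 ratio was 3.02 (2.89 to 3.15). Without them 8 of 10 chains again had a ratio of at least 1.5.

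The marker that defines fibroblasts itself differed between diets: Dcn stood at 24854 CPM on LFD and 19192 CPM on HFD in the Pi16-low class, and Lum, the related proteoglycan lumican, at 734 and 1871 CPM. When Pdgfra, Lum and Dpt replaced Dcn in the rule, the summed ratio was 1.96 in Pi16-low and 2.09 in Pi16-high fibroblasts. Depth moved with the result as well. The Pi16-low ratio was 1.32 (1.22 to 1.43) in barcodes below 5000 UMIs (45 and 30 barcodes), 1.89 (1.85 to 1.94) between 5000 and 10000 UMIs (131 and 141) and 2.15 (2.08 to 2.23) above (28 and 36). In the Pi16-high class the same strata gave 2.45, 1.58 and 2.29. The limits of the study, which kept 55 and 75 Pi16-low barcodes, gave a summed ratio of 1.59 (1.52 to 1.67). There 5 of 10 chains were at least 1.5-fold higher against 11.2% of 1970 genes, and Col14a1 turned to 0.735 (0.478 to 1.14). The part of depth in the result was not tested.

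The higher level was spread over the barcodes of a class. In Pi16-low fibroblasts on LFD, the summed level per barcode was 3743 CPM at the 10th percentile, 8892 CPM at the median and 18779 CPM at the 90th percentile. On HFD the same percentiles were 7097, 16934 and 34013 CPM. Of 207 HFD barcodes, 176 (85.0%) lay above the LFD median and 84 (40.6%) above the LFD 90th percentile. In the Pi16-high class the median was 6640 CPM on LFD and 12229 CPM on HFD, and 75 of 84 HFD barcodes (89.3%) lay above the LFD median. The distributions overlapped in both classes, with HFD shifted upwards at each of these percentiles.

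**Figure D3:**
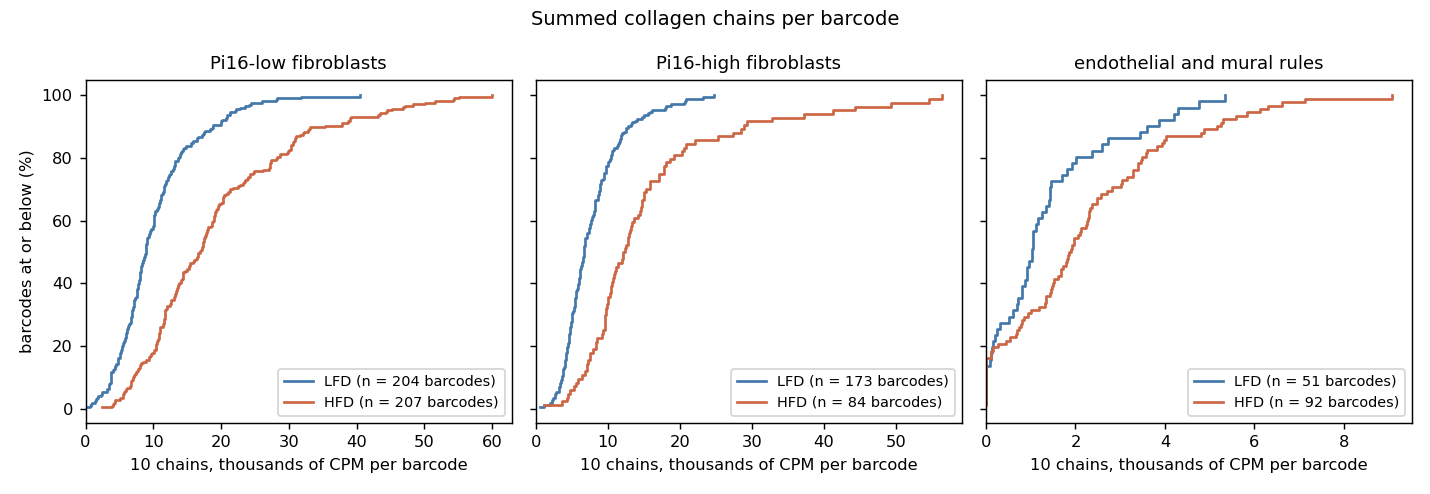
Cumulative share of barcodes (percent) by their summed level of the 10 chains (CPM per barcode, axis in units of 1000), LFD in blue and HFD in orange, in 3 groups. The HFD curve lies to the right of the LFD curve along most of its length in each panel, with medians of 8892 and 16934 CPM in Pi16-low fibroblasts, and barcodes of a library are not replicates.

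Detection was not ordered by level alone. In Pi16-high fibroblasts on LFD, Col14a1 at 570 CPM had a UMI in 72.8% of barcodes and Col5a1 at 225 CPM in 77.5%. Col3a1 had a UMI in 98.5% of Pi16-low barcodes on LFD and 100% on HFD, or in 88.9 and 96.6% once each barcode was thinned to 1000 UMIs, against 1.30 and 4.67% of macrophages unthinned. Col14a1 was the sparsest chain of the Pi16-low class, with a UMI in 29.4% of Pi16-low barcodes on LFD and 45.4% on HFD (8.04 and 12.7% when thinned) and in 72.8 and 84.5% of Pi16-high barcodes (32.9 and 40.5% when thinned), against 0.435 and 1.87% of macrophages. In the Pi16-high class Col5a3 was sparser, with a UMI in 54.9 and 76.2% of barcodes. The Col14a1 UMIs were also the most concentrated of the Pi16-low class. The 10% of Pi16-low barcodes with the most held 62.6% of the Col14a1 UMIs on LFD and 48.8% on HFD, where the other 9 chains had between 27.7 and 38.5%.

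The second comparison set the fibroblast classes against each other. Col14a1 was 5.21-fold (4.41 to 6.19) higher in Pi16-high than in Pi16-low fibroblasts on LFD and 4.62-fold (4.02 to 5.31) higher on HFD. It was the only chain of 10 that was at least 1.5-fold higher, where 12.3 and 13.1% of genes were. In contrast, 6 of 10 chains were at least 1.5-fold lower on each diet, against 9.01 and 10.1% of genes. The summed chains had ratios of 0.735 (0.718 to 0.752) and 0.742 (0.727 to 0.757). The lowest member was Col5a3 on LFD, at 0.405 (0.350 to 0.467), and Col6a3 on HFD, at 0.495 (0.441 to 0.554). Without the barcodes with mesothelial UMIs, the Col14a1 ratio was 6.36 on LFD and 5.57 on HFD. Within the limits of the study it was lower on LFD, at 3.29 (2.20 to 4.98), and 5.57 (3.83 to 8.13) on HFD.

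Col14a1 also varied along the UMIs of Pi16, Dpp4 and Sema3c on which the class limit was set. Steps of raw UMIs cannot show whether the classes form a range or separate groups. On LFD, Col14a1 had 87.3 CPM in the 124 fibroblasts with 0 UMIs of Pi16, Dpp4 and Sema3c, 138 CPM in 80 barcodes with 1 or 2, 203 CPM in 37 barcodes with 3 to 5 and 644 CPM in 136 barcodes with 6 or more. On HFD the levels were 154, 247, 462 and 990 CPM in 141, 66, 28 and 56 barcodes. The summed chains, by contrast, had 10416, 10531, 10054 and 7211 CPM on LFD in these steps. On HFD they had 20166, 21544, 18310 and 14219 CPM, so on both diets they were lowest in the last step. Within each step both the summed chains and Col14a1 were higher on HFD.

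Chains of the same trimer were next compared as ratios of UMIs, which need no scaling to depth. Col1a1 to Col1a2 was 0.442 (0.416 to 0.469) on LFD and 0.530 (0.508 to 0.553) on HFD in Pi16-low fibroblasts, a change by a factor of 1.20 (1.12 to 1.29). This factor was 1.14 (1.04 to 1.26) among barcodes of 5000 to 10000 UMIs and 1.16 (1.07 to 1.25) without the deepest 5%. Its interval included no change within the limits of the study (1.05, 0.876 to 1.26) and with barcodes thinned to 1000 UMIs (1.10, 0.897 to 1.35). In the Pi16-high class Col1a1 to Col1a2 was 0.435 and 0.465 (1.07, 0.97 to 1.18), where the interval includes no change. The ratio was below 1 in both classes, although type I trimers hold more of the Col1a1 than of the Col1a2 product. UMIs of different genes can be captured at different rates, so the size of a ratio is not read as a proportion of protein, and the ratio of the same chains is compared between libraries and between classes.

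The ratio of type III to type I, Col3a1 to Col1a1 plus Col1a2, was higher on HFD in both classes. It was 1.08 (1.04 to 1.12) on LFD and 1.46 (1.42 to 1.5) on HFD in the Pi16-low class, a factor of 1.35 (1.29 to 1.42). In the Pi16-high class it went from 0.907 (0.869 to 0.945) to 1.54 (1.48 to 1.61), a factor of 1.70 (1.60 to 1.81). Within the limits of the study the Pi16-high values were 0.545 and 1.44, a factor of 2.64 (2.14 to 3.26). Over all barcodes the ratio on LFD was lower in Pi16-high than in Pi16-low fibroblasts, and on HFD it was higher, with intervals apart on LFD and overlapping on HFD. The HFD order turned among barcodes of 5000 to 10000 UMIs, at 1.5 (1.45 to 1.55) in Pi16-low and 1.40 (1.29 to 1.51) in Pi16-high fibroblasts.

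The proportions of the type VI chains were compared in the same way. Col6a3 to Col6a1 plus Col6a2 was 0.359 and 0.350 in Pi16-low fibroblasts (0.974, 0.878 to 1.08) and 0.299 and 0.296 in Pi16-high fibroblasts (0.990, 0.843 to 1.16). Col6a1 to Col6a2 was 1.58 and 1.79 in the Pi16-low class (1.14, 1.02 to 1.27) and 1.63 on each diet in the Pi16-high class (1.0, 0.858 to 1.18). The Pi16-low factor was 1.04 (0.787 to 1.37) within the limits of the study and 1.57 (1.16 to 2.12) with barcodes thinned to 1000 UMIs. The Col6a3 ratio was lower in Pi16-high than in Pi16-low fibroblasts on both diets. The intervals of the classes overlapped at their ends (0.330 to 0.391 against 0.268 to 0.334 on LFD, and 0.330 to 0.371 against 0.264 to 0.332 on HFD). No interval was computed for the factor between the classes. With barcodes thinned to 1000 UMIs the order turned on LFD, at 0.346 (0.25 to 0.471) in Pi16-high and 0.321 (0.25 to 0.410) in Pi16-low fibroblasts, and the Pi16-high value on HFD was 0.239 (0.158 to 0.352). The ratio of all type VI to all type I UMIs was 0.531 and 0.604 in the Pi16-low class (1.14, 1.07 to 1.20) and 0.399 and 0.470 in the Pi16-high class (1.18, 1.09 to 1.28). The Pi16-high factor was 2.19 (1.68 to 2.86) within the limits of the study, whereas with barcodes thinned to 1000 UMIs the Pi16-high ratios were 0.462 and 0.465.

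Over all barcodes the mixture of type V chains differed between the diets. Col5a3 to Col5a1 was 1.19 on LFD and 1.48 on HFD in Pi16-low fibroblasts (1.24, 1.07 to 1.45), and 0.741 and 1.30 in Pi16-high fibroblasts (1.76, 1.40 to 2.21). The Pi16-low factor was also above 1, but with an interval that includes no change, in other settings. It was 1.25 (0.820 to 1.90) within the limits of the study, 1.16 (0.960 to 1.41) among barcodes of 5000 to 10000 UMIs and 1.15 (0.978 to 1.36) without the deepest 5%. With barcodes thinned to 1000 UMIs the Pi16-high values were 0.892 and 1.0, on far fewer UMIs, a factor of 1.12. Col5a1 to Col5a2 went down in the Pi16-low class, from 0.762 to 0.564 (0.741, 0.638 to 0.860), with 0.674 and 0.633 in the Pi16-high class (0.939, 0.765 to 1.15). The factors were 0.988 in the Pi16-low class within the limits of the study and 1.55 in the Pi16-high class when thinned. All type V to type I was 0.345 and 0.315 in the Pi16-low class (0.914, 0.854 to 0.978) but 0.261 and 0.299 in the Pi16-high class (1.14, 1.04 to 1.26), so over all barcodes the classes moved in opposite directions. Within the limits of the study the Pi16-low factor turned to 1.20 and the Pi16-high factor was 2.11. The change of Col14a1 to type I was 0.977 (0.802 to 1.19) in Pi16-low and 0.95 (0.852 to 1.06) in Pi16-high fibroblasts over all barcodes, with intervals that include no change. It was 0.553 in Pi16-low fibroblasts within the limits of the study, and 1.57 in Pi16-high fibroblasts of 5000 to 10000 UMIs.

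**Figure D4:**
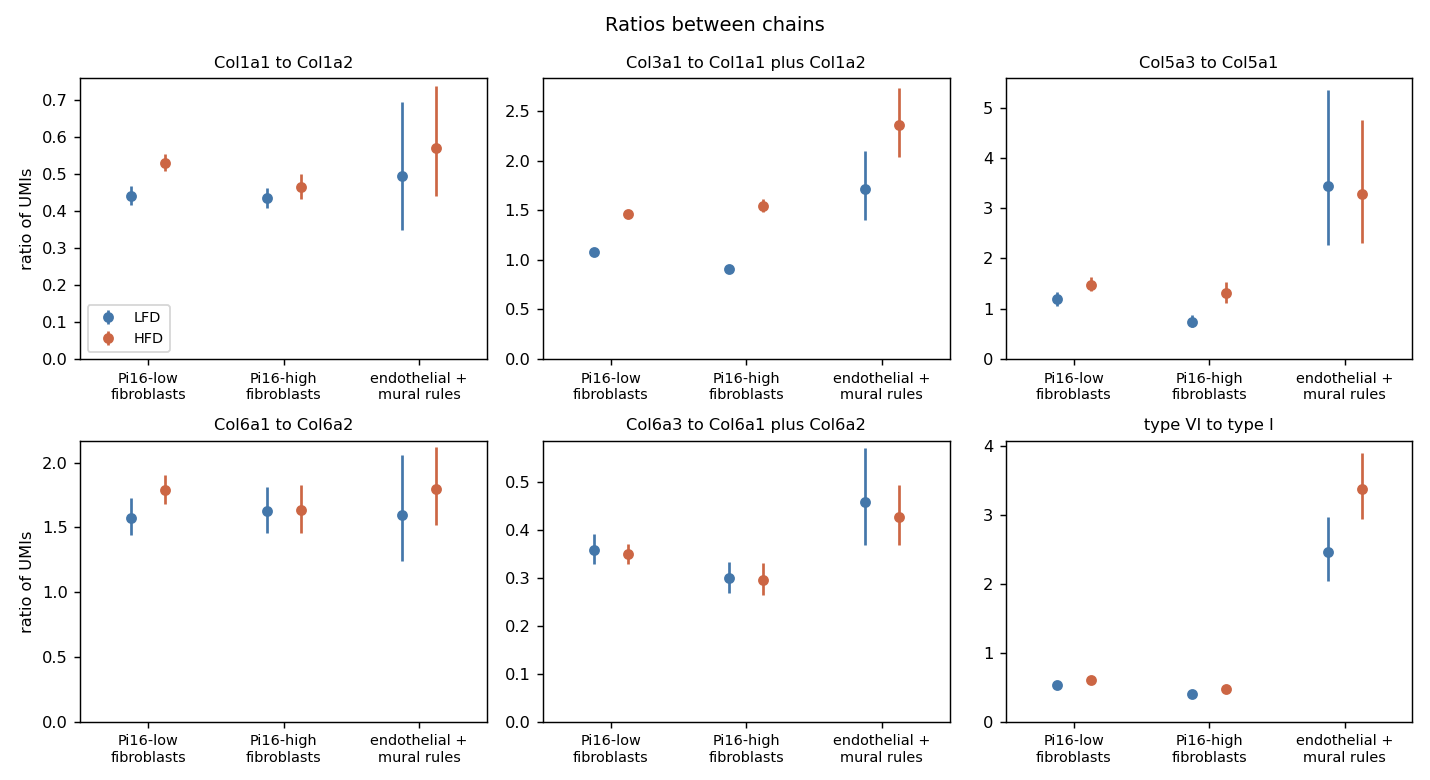
Ratios of UMIs between chains (linear axes from 0) in 3 groups of barcodes, LFD in blue and HFD in orange, with exact conditional 95% intervals of counting error. Type III to type I is higher on HFD in every group, Col6a3 to the other type VI chains is nearly level between diets, and type VI to type I is highest, above 2, in barcodes with both vascular rules.

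Vascular barcodes made the third setting. The group that met the endothelial and the mural rule carried 8 endothelial markers at 10505 and 10302 CPM in sum and 9 mural markers at 3202 and 3111 CPM. Both lists hold the genes of the rules that chose the group, so these sums follow in part from that choice. Fibroblast markers summed to 550 and 654 CPM, against 59105 and 55972 CPM in Pi16-low fibroblasts. The 4 adipocyte markers stood at 939 CPM on LFD and 359 CPM on HFD, with 33 of 51 and 21 of 92 barcodes at 5 or more such UMIs. The 10 chains summed to 1357 CPM on LFD (1275 to 1442) and 2207 CPM on HFD (2113 to 2304), a ratio of 1.63 (1.51 to 1.75). The ratio was 1.23 (1.10 to 1.38) without the barcodes with adipocyte UMIs, which left 18 and 71, and 1.63 (1.34 to 1.99) without those at 5 or more fibroblast marker UMIs, which left 18 and 42. It was 1.28 (1.08 to 1.52) among barcodes of 5000 to 10000 UMIs, and turned to 0.864 (0.525 to 1.45) within the limits of the study, which kept 3 and 8. Of the 9 chains with at least 50 UMIs, 4 were at least 1.5-fold higher, against 5.36% of 5073 genes, and 0 lower, against 4.32%. These were Col6a1 (220 and 427 CPM, 1.94, 1.62 to 2.34), Col3a1 (363 and 662 CPM, 1.82, 1.58 to 2.11), Col6a3 (164 and 285 CPM, 1.73, 1.40 to 2.16) and Col6a2 (138 and 238 CPM, 1.73, 1.36 to 2.20). Each of these 4 was below 1.5-fold without the barcodes with adipocyte UMIs, at 1.39 for Col6a1, 1.38 for Col3a1, 1.21 for Col6a3 and 1.32 for Col6a2, and Col6a1 and Col3a1 were at 1.15 and 1.42 among barcodes of 5000 to 10000 UMIs. Without the barcodes with fibroblast UMIs, Col6a2 was at 1.42. Col5a3 stood at 136 and 147 CPM, with a ratio of 1.08 (0.827 to 1.40).

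The chain mixture in these vascular barcodes was unlike that of fibroblasts. Type VI to type I was 2.46 (2.04 to 2.98) on LFD and 3.39 (2.95 to 3.90) on HFD, and Col5a3 to Col5a1 was 3.43 (2.27 to 5.34) and 3.29 (2.31 to 4.76), all above the fibroblast values with intervals apart. Col14a1 had 0 UMIs in 51 LFD barcodes, which allows a level of up to 3.97 CPM, and 1 UMI in 92 HFD barcodes. Col1a2 made up 10.4 and 8.09% of the collagen UMIs there, against 23.2 and 19.2% in Pi16-low fibroblasts.

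**Figure D5:**
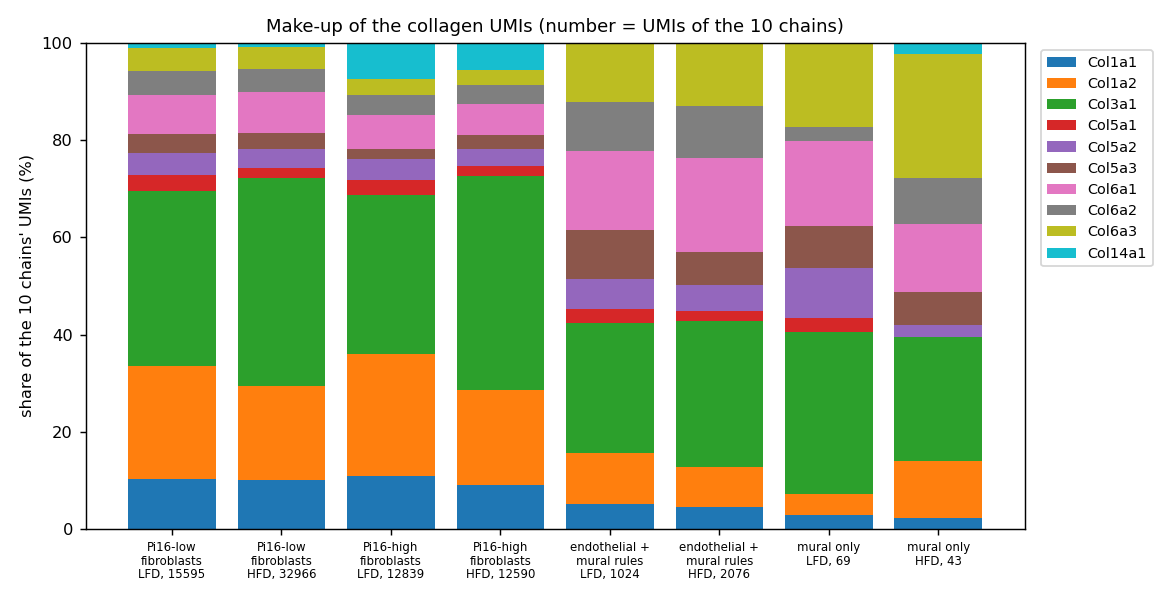
Share of each chain among the UMIs of the 10 chains (percent, bars stacked to 100), by group and diet, with the number of UMIs under each bar. Col3a1 takes a larger share on HFD than on LFD in both fibroblast classes, Col14a1 is visible mainly in Pi16-high fibroblasts, and the type VI chains take a larger share in vascular barcodes. The mural bars rest on 69 and 43 UMIs.

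Barcodes that met the mural rule alone were few. The 10 chains summed to 3960 CPM in 5 LFD barcodes and 4607 CPM in 6 HFD barcodes, on 69 and 43 UMIs (1.16, 0.776 to 1.73), and the HFD barcodes had a median of 1037.5 UMIs with 16.1% of them mitochondrial. The ratio turned to 0.773 without the deepest 5% of barcodes, and was 2.0 within the limits of the study and 2.30 when barcodes that met several rules were kept. The endothelial class had 50.7 and 129.7 CPM on 28 and 67 UMIs (2.56, 1.62 to 4.13), but 1.23 when every barcode weighed the same, and macrophages, the background class, had a ratio of 2.41 (1.28 to 4.94). Fibroblast markers in macrophages moved with it, at 179 and 274 CPM with 5 of 230 and 40 of 321 barcodes at 5 or more such UMIs, as did progenitor markers, at that level in 1 and 27 barcodes. Adipocyte markers stood at 1250 and 376 CPM in endothelial and at 2927 and 214 CPM in mural barcodes. Their part in these ratios was not tested. Col14a1 had 0 UMIs in 98 and 115 endothelial barcodes, which allows up to 5.43 and 5.81 CPM. The endothelial ratio was 5.09 within the limits of the study and the macrophage ratio 9.69 with a Dcn minimum of 20. No chain reached 50 UMIs in any of these 3 classes, so no chain was compared between diets there.

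Within the Pi16-low class, barcodes rich in one chain tended to be rich in the others. After thinning to 5000 UMIs (159 LFD and 177 HFD barcodes), Spearman correlations among the 36 pairs without Col14a1 had a median of 0.32 on LFD (0.12 to 0.51) and 0.41 on HFD (0.21 to 0.72). For Col1a1 and Col1a2 they were 0.47 and 0.71, and for the type VI pairs they lay between 0.38 and 0.40 on LFD and between 0.47 and 0.58 on HFD. The 9 pairs with Col14a1 lay between -0.19 and 0.12 on LFD and between -0.12 and 0.18 on HFD. These are descriptions over barcodes that share a library.

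Summed over all barcodes with at least 200 genes, the diet ratios were smaller than within the fibroblast classes. The 10 chains went from 4246 to 6440 CPM of the UMIs in these barcodes (1.52, 1.5 to 1.54), and Col3a1 from 1462 to 2733 CPM (1.87). Col14a1 went the other way, from 154 to 130 CPM (0.842, 0.773 to 0.915), whereas over all barcodes of each fibroblast class it was higher on HFD (in the Pi16-low class not within the limits of the study, at 0.735). Pi16-high fibroblasts, which held 84.8% of the Col14a1 UMIs on LFD and 64.4% on HFD, made up 22.9% of these UMIs on LFD and 9.81% on HFD. The Pi16-low class made up 20.5 and 19.1%. With 1 library per diet, a change in the share of Pi16-high cells cannot be told apart from a difference between dissociations.

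The genes that act on these chains were followed through lists of known genes. Of 20 genes for hydroxylation, folding and secretion of collagen, 17 had at least 50 UMIs in Pi16-low fibroblasts, and 5 were at least 1.5-fold higher on HFD and 0 lower (6.22 and 8.4% of all genes), with a median ratio of 1.25. Sparc, a matrix glycoprotein that binds collagen, went from 3537 to 7516 CPM (2.12, 2.06 to 2.19). The lysyl hydroxylases Plod1 (56.4 to 109 CPM, 1.94, 1.49 to 2.55) and Plod2 (75.8 to 125 CPM, 1.65, 1.30 to 2.10) and the prolyl hydroxylase subunit P4ha2 (47.6 to 71.9 CPM, 1.51, 1.11 to 2.06) were higher, as was Serpinh1, the collagen chaperone HSP47 (848 to 1323 CPM, 1.56, 1.45 to 1.67). P4hb, the other subunit of prolyl hydroxylase, had a ratio of 1.05 (0.903 to 1.22). In Pi16-high fibroblasts 3 of 17 were at least 1.5-fold higher (5.8% of all genes), namely Sparc (2.03), P4ha2 (1.99) and Plod2 (1.55), and Plod1 had 1.11 (0.680 to 1.78).

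Of 13 genes for propeptide cleavage and cross-linking, 8 were usable in the Pi16-low class, with 3 higher (6.22% of all genes), 1 lower (8.4%) and a median ratio of 1.45. Pcolce, an enhancer of procollagen C-proteinase, went from 313 to 740 CPM (2.37, 2.13 to 2.64), while its relative Pcolce2 stood at 442 and 314 CPM (0.711, 0.632 to 0.800). Adamts2, which removes the N-propeptide, went from 307 to 485 CPM (1.58, 1.41 to 1.78), and the lysyl oxidase family member Loxl2 from 143 to 216 CPM (1.51, 1.27 to 1.80). Loxl3 was lower, at 34.2 and 21.3 CPM (0.621, 0.390 to 0.978). In the Pi16-high class Pcolce (1.64) and the C-proteinase Bmp1 (1.54) were at least 1.5-fold higher (5.8% of all genes) and 0 of 8 were lower (7.7%).

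Of the usable receptor genes, 3 of 7 had a ratio above 1 in each fibroblast class. Of 13 genes for collagen receptors and uptake, 7 were usable in the Pi16-low class, with a median ratio of 0.856, and 1 of 7 was at least 1.5-fold higher, against 6.22% of all genes. This was Mrc2, an endocytic collagen receptor (55.0 and 106 CPM, 1.93, 1.48 to 2.55). Ddr2, the fibrillar collagen receptor kinase, stood at 407 and 323 CPM (0.793, 0.704 to 0.894). In the Pi16-high class 0 of 7 were past 1.5-fold in either direction (5.8% of all genes higher and 7.7% lower), and Mrc2 had 0.898 (0.549 to 1.43). Of 15 other fibrillar, type VI and fibril-associated chains, 4 were usable in each class, and 2 of 4 were at least 1.5-fold higher in each (6.22 and 5.8% of all genes). In Pi16-low fibroblasts Col27a1 (16.8 and 35.6 CPM, 2.12, 1.31 to 3.55) and Col6a5 (405 and 700 CPM, 1.73, 1.57 to 1.91) were past 1.5-fold and Col6a6 was at 0.805 (0.676 to 0.957). In Pi16-high fibroblasts Col6a5 (1.53) and Col12a1 (1.70, 0.970 to 2.96) were.

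Lastly, the 8329 other genes with at least 50 fibroblast UMIs were ranked by how closely their log2(CPM + 1) followed that of the summed chains over 10 values, the 5 classes in both libraries. The closest were Serping1 (Pearson r 0.992), Adamts2 (0.990), Htra1 (0.989), Fxyd1 (0.988), Prrx1 (0.981), Itih5 (0.980), Ebf2 (0.979), C1s1 (0.979), Ccl11 (0.978) and Errfi1 (0.978). Prrx1 and Ebf2 encode transcription factors, Htra1 a secreted protease, C1s1 and Serping1 a complement protease and its inhibitor, and Ccl11 the chemokine eotaxin. The likeness rests mostly on high levels in fibroblasts and low levels in endothelial cells and macrophages, and Serping1 is itself among the fibroblast markers used above. The mural values rest on 17423 UMIs on LFD and 9334 on HFD, where 1 UMI amounts to 57.4 and 107 CPM. The order among the closest genes is therefore loose. Between diets in Pi16-low fibroblasts, these genes ranged from Adamts2, 307 to 485 CPM, to Ebf2, 172 to 129 CPM, so several of them did not share the diet difference of the chains.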

How the data were processed

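Single-cell libraries (10x Chromium 3′ v3) of 1 LFD and 1 HFD sample were analysed. The authors deposited unnormalized counts of UMIs for each gene in each barcode, made with Cell Ranger on mm10; the file header names version 3.0.2. The diet was taken from the per-sample labels, as a shared protocol text names the low-fat diet for both. The collagen members, class rules and gene lists were chosen with earlier results of these data known.

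Barcodes with at least 200 genes were classed by marker UMIs, those meeting several rules were left out of single classes, and UMIs were summed per class and divided by all UMIs of the class to give CPM. A gene was compared when it had at least 50 UMIs over both libraries, and counted as higher or lower past 1.5-fold. The share of genes with intervals apart between classes and that within the study's limits were added after seeing the data. From the pathway lists, genes past 1.5-fold in Pi16-low fibroblasts with an interval that leaves out 1 were named, together with the 10 genes most like the members; Dcn, Lum, P4hb, Pcolce2, Ddr2, Col6a6, Bmp1, Col12a1 and the Pi16-high values were chosen after their values were seen. Chain ratios have exact conditional intervals at 95%. Thinning drew 1000 UMIs per barcode, or 5000 for correlations. The limit for a count of 0 is 3 UMIs. The ratio method was tested on simulated data. The group with both vascular rules, the mesothelial, mural, adipocyte and fibroblast marker splits, the depth strata and the settings for changes of chain ratios were chosen after seeing the data. Scrublet marked 20 LFD and 26 HFD barcodes, kept in the main values. Positions come from GENCODE M21 and upstream windows from RefSeq. Clustering, integration and the study's own tests were not repeated. Software was scanpy 1.11.5 (Scrublet), scipy 1.17.1, matplotlib 3.10.9, pandas 2.3.3 and numpy 2.4.6 on Python 3.11.15.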

Additional observations from a re-analysis of the deposited data

Results flagged for a closer look

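Collagen UMIs also lay in barcodes outside the compared classes, where macrophages had 8.07 CPM on LFD (4.17 to 14.1) and 19.5 CPM on HFD (14.8 to 25.2). Barcodes that met no marker rule had 117 CPM of the 10 chains on LFD (121 UMIs in 282 barcodes) and 485 CPM on HFD (531 UMIs in 264 barcodes). On HFD, 293 of those 531 UMIs came from 7 barcodes with 5 to 9 UMIs of Dcn, just under the fibroblast limit. Barcodes with under 200 genes had 39.3 CPM on LFD (8.11 to 115, 3 UMIs in 56 barcodes), which overlaps the macrophage interval, and 3329 CPM on HFD (77 UMIs in 27 barcodes), where 2 of 27 barcodes held all 77 UMIs. Barcodes that met the fibroblast rule together with another rule had 5256 CPM on LFD (4963 to 5562, 11 barcodes) and 15353 CPM on HFD (14951 to 15763, 20 barcodes), at median depths of 20967 and 17366 UMIs.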

How the results depend on the processing

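No paired analysis was possible because each diet has 1 library, and no library could be left out for the same reason. Of the main results under the alternatives, 257 stayed within counting error of the reported value, 73 moved beyond it and 1 turned direction; for single chains and for changes of chain ratios the counts were 390, 97 and 2. The summed HFD over LFD ratio lay between 1.59 and 1.99 in Pi16-low and between 1.58 and 2.26 in Pi16-high fibroblasts under the alternatives listed here, and depth strata gave 1.32 to 2.15 and 1.58 to 2.45. Scaling by the median gene moved log2 ratios by 0.13 in mural barcodes and by at most 0.01 in the other classes. The cause of these moves was not tested, and few collagen UMIs limit the mural, endothelial and macrophage values.

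With the limits of the study (200 to 2500 genes, under 5% mitochondrial UMIs), the Col14a1 diet ratio in Pi16-low fibroblasts turned to 0.735, 5 chains there were past 1.5-fold, and the summed ratio was 1.59 in Pi16-low, 2.26 in Pi16-high, 5.09 in endothelial, 2.0 in mural and 0.864 (turned) in barcodes with both vascular rules; type V to type I turned to a change by 1.20 in Pi16-low fibroblasts. Fibroblasts then held 97.4% (LFD) and 96.0% (HFD) of collagen UMIs, and Col14a1 was 3.29-fold and 5.57-fold higher in Pi16-high than Pi16-low fibroblasts. Col3a1 to type I was 0.971 and 1.33 in Pi16-low and 0.545 and 1.44 in Pi16-high fibroblasts (LFD and HFD). Col1a1 to Col1a2 was 0.488 (Pi16-low, HFD), 0.478 and 0.426 (Pi16-high, LFD and HFD), Col6a3 to the other type VI chains 0.324 (Pi16-low, HFD) and 0.237 (Pi16-high, LFD), and Col5a3 to Col5a1 1.33 (Pi16-low, HFD), 0.619 and 1.60 (Pi16-high).

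With barcodes thinned to 1000 UMIs, the summed ratio was 1.85 in Pi16-low, 1.94 in Pi16-high, 1.73 in mural and 2.10 in barcodes with both vascular rules. Col1a1 to Col1a2 was 0.501 (Pi16-low, HFD) and 0.480 (Pi16-high, LFD), Col3a1 to type I 1.40 (Pi16-low, HFD), Col6a3 to the other type VI chains 0.321 and 0.294 (Pi16-low) and 0.346 and 0.239 (Pi16-high), and Col5a3 to Col5a1 1.71 (Pi16-low, HFD), 0.892 and 1.0 (Pi16-high). Among barcodes of 5000 to 10000 UMIs, the summed ratio was 1.89 and 1.58 in the fibroblast classes and 1.28 with both vascular rules, Col1a1 to Col1a2 0.493 (Pi16-low, HFD) and 0.426 (Pi16-high, HFD), Col3a1 to type I 1.5 (Pi16-low, HFD), 0.826 and 1.40 (Pi16-high), so that the order of the classes on HFD turned, and Col14a1 6.00-fold higher in Pi16-high fibroblasts on HFD.

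Leaving out the deepest 5% of barcodes gave summed ratios of 2.04 (Pi16-high), 1.76 (both vascular rules) and 0.773 (mural, opposite in direction to the reported value, whose interval includes no change) and Col3a1 to type I of 1.53 (Pi16-low, HFD) and 0.867 (Pi16-high, LFD). Weighing every barcode the same gave summed ratios of 1.90 (Pi16-low) and 1.23 (endothelial). With Pdgfra, Lum and Dpt in place of Dcn, the Pi16-high summed ratio was 2.09, Col3a1 to type I 0.818 (Pi16-high, LFD) and Col14a1 6.29-fold and 5.54-fold higher in Pi16-high fibroblasts. Leaving out barcodes with mural marker UMIs gave 1.92 (Pi16-low) and 2.09 (Pi16-high), and leaving out those with adipocyte marker UMIs 1.23 (both vascular rules). Without barcodes with mesothelial UMIs the Pi16-high summed ratio was 2.08, Col3a1 to type I 0.815 (LFD) and the Col14a1 ratio between classes 6.36 and 5.57. Keeping barcodes that met several rules gave summed ratios of 2.09 (Pi16-high) and 2.30 (mural), and a split at 6 UMIs gave Col6a3 to the other type VI chains of 0.242 (Pi16-high, HFD). A Dcn minimum of 20 put 91.5 and 84.0% of collagen UMIs in fibroblasts and the macrophage ratio at 9.69, a minimum of 5 put 84.9% there on HFD, and leaving out Scrublet barcodes 94.7 and 91.2%. At 2-fold, 2 chains were called in each fibroblast class.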
